A study of Bos taurus with 16 samples.

Results

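Luteinising hormone (LH) was added to bovine theca cells that already received bone morphogenetic protein 6 (BMP6), and the response was read as the difference between the LH+BMP6 and the BMP6 arrays. The 4 arrays labelled LH + BMP and the 4 labelled BMP were taken by their titles, which makes 8 of the series' 16 arrays. All 24016 probe sets other than the manufacturer's controls were used, and 13292 of them carried a single gene symbol, for 9155 genes. No probe set passed the test in this comparison, and the mRNAs of the steroid hormone pathway showed similar signals with and without LH.

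Cells of the theca interna, the inner wall layer around the ovarian follicle, came from adult cattle and were kept in primary culture for 6 days without serum. Treatments were present for the last 4 days. The BMP6 group received 10 ng/ml BMP6 and no LH, and the LH+BMP6 group received 10 ng/ml BMP6 with 160 pg/ml LH. The other groups were the untreated control and LH at 160 pg/ml without BMP6. Each group held 4 arrays, and every culture was pooled from many follicles of slaughterhouse ovaries, so an array stands for a pool and not for an animal. The experiment was repeated on different batches of ovaries. In bulk RNA, fewer cells of a type and less RNA per cell cannot be told apart.

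Theca cells make the androgens of the follicle. LH acts on its receptor LHCGR, a G protein-coupled receptor, which raises cyclic AMP, activates protein kinase A and is known to increase the transcription of STAR, CYP11A1 and CYP17A1. BMP6 is a ligand of the transforming growth factor beta family that signals through SMAD proteins, and the ID genes are its classic targets. BMPs are known to lower androgen output of theca cells, so adding LH to BMP6-treated cells asks how much of the LH response is still seen under BMP6.

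The labels were checked against marker genes. Signals are given on the log2 scale, on which a difference of 1 is 2-fold. The theca steroid enzyme CYP11A1 averaged 9.05 with BMP6 and 9.14 with LH+BMP6, and INSL3, a peptide hormone that marks theca and Leydig cells, averaged 8.38 and 8.88. CYP17A1, the androgen-forming enzyme of theca cells, was dim in both groups, at 4.58 and 4.54, against 7.38 in the control. FSHR, the receptor that marks granulosa cells, was at 3.57 and 3.42, and CYP19A1 of the same marker list at 4.65 and 4.62. Other members of that list were bright, with FST at 10.69 and 10.85 and INHBA at 9.12 and 9.30. Its 12 measured markers averaged between 6.69 and 6.89 on the 8 arrays. The share of granulosa cells was not tested. The 15 measured leukocyte markers averaged between 7.28 and 7.87 on the 8 arrays, against 7.30 to 7.33 over all genes. That average does not by itself show that leukocytes were present. No background level was estimated, so the lowest signals may hold no transcript.

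Arrays of the same replicate number were, by the median, closer to each other than arrays of the same group. The root mean square difference between 2 arrays had a median of 0.187 over the 4 pairs of the same number with and without LH. It was 0.262 over the 12 pairs of different numbers across the groups, 0.256 within BMP6 and 0.256 within LH+BMP6. The replicate 2 arrays of both groups stood apart on the first principal component, at -29.3 and -24.8 against 0.982 to 13.5 for the other 6. Without replicate 2, as without any other replicate, no probe set passed the test. Of 6 quality measures, the GAPDH control's 3′ minus 5′ signal was 0.140 ± 0.0196 (SD, n = 4) with LH+BMP6 and 0.229 ± 0.0390 with BMP6, and these values did not overlap. Its exact two-sided permutation p was 0.0286, the smallest that 4 against 4 arrays can give, and 0.172 after Benjamini-Hochberg adjustment over the 6 measures; the other 5 had p of 0.543 to 0.914. Its part in the results was not tested. Hybridisation controls were low, at 8.66 to 8.71, on 3 arrays outside the comparison (replicates 1 and 3 of the control and replicate 1 of LH), against 9.84 to 10.17 on the other 13.

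**Figure D1:**
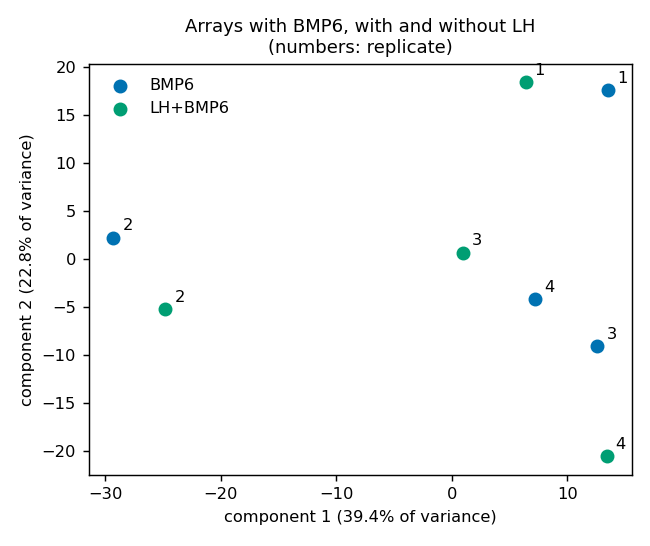
First 2 principal components of the 8 arrays, in component units with the share of variance on each axis; points are arrays, blue for BMP6 and green for LH+BMP6, numbered by replicate. Both replicate 2 arrays lie at the left, and the replicate 1 arrays lie together at the top, at 17.6 and 18.4 on component 2.

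Across the array, LH in the presence of BMP6 gave small differences. In limma's fit over all 16 arrays with Benjamini-Hochberg adjustment, 0 of 24016 probe sets (0%) passed an adjusted p under 0.05, and the smallest adjusted p was 1.00. At an unadjusted p under 0.05 there were 471 (1.96%), of which 214 were higher (0.891%) and 257 lower (1.07%) with LH. The median absolute difference was 0.0611, and 95% of the probe sets differed by less than 0.192. The full range ran from -0.61 to 0.59, with none at 2-fold and 3 past 1.5-fold. The 95% interval of the difference, which is not adjusted for the number of tests, lay within 2-fold in either direction for 23950 probe sets (99.7%) and within 1.5-fold for 23090 (96.1%). Seen per gene, with the brightest probe set of each, 128 of 9155 genes (1.40%) reached an unadjusted p under 0.05, 66 higher (0.721%) and 62 lower (0.677%).

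LH without BMP6, measured on the other 8 arrays, gave larger differences in the same fit. There 3 of 24016 probe sets passed (0.0125%), all higher with LH, and 1291 (5.38%) had an unadjusted p under 0.05. Per gene these were 2 (0.0218%) and 496 of 9155 (5.42%). The range ran from -1.49 to 2.43, and 20 probe sets reached 2-fold. The gap in counts depended on the fit. In limma on each set of 8 arrays with a fixed term for replicate number, 1596 probe sets had an unadjusted p under 0.05, against 1130 with BMP6. Without the 3 arrays of low hybridisation signal the counts were 688 and 464. The test of the difference between the responses, the interaction of LH and BMP6, called 0 probe sets (0%), with 773 (3.22%) at an unadjusted p under 0.05. So the LH responses with and without BMP6 were not shown to differ for any single probe set after adjustment. Over the 9155 genes, the LH differences with and without BMP6 had a Pearson correlation of 0.105, a description across genes of which many are near 0 on both sides. The 299 genes (3.27%) that were higher with LH alone at an unadjusted p under 0.05 had a median difference of 0.266 there and 0.0349 with BMP6. With BMP6, 185 of them were above 0, 114 below, and 4 reached that p in the same direction. The 197 genes (2.15%) lower with LH alone had a median of -0.265 there and -0.0128 with BMP6. Both sets were picked by their p and sign with LH alone, which favours large differences on those arrays. Medians nearer to 0 on other arrays would follow from that picking too, so they do not show a response lost under BMP6.

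**Figure D2:**
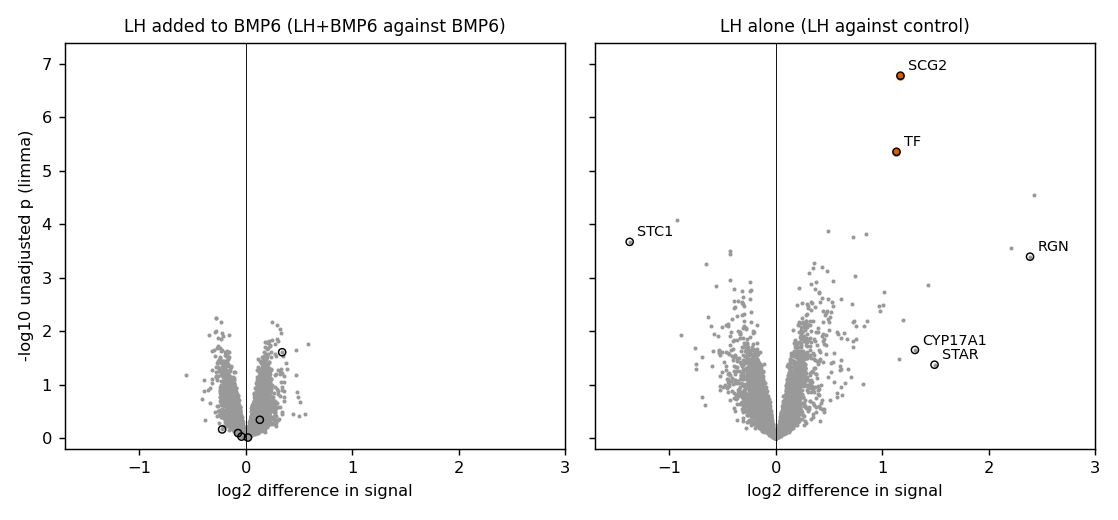
Log2 difference made by LH (x) against -log10 of limma's unadjusted p (y), 1 point a gene, with BMP6 (left) and without it (right); orange points passed at an adjusted p under 0.05 and rings mark SCG2, TF, RGN, STC1, STAR and CYP17A1. The points with BMP6 lie between -0.57 and 0.59, and those without BMP6 between -1.37 and 2.43.

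The genes of steroid synthesis did not pass the test, and their group means were close. STAR, which carries cholesterol into the mitochondrion, read 5.73, 5.24, 8.18 and 7.72 on BMP6 replicates 1 to 4 and 5.03, 6.10, 7.81 and 8.01 on LH+BMP6 replicates 1 to 4. Replicates 1 and 2 were low and 3 and 4 high in both groups, and the groups overlapped fully. The means were 6.72 ± 1.45 (SD, n = 4) and 6.74 ± 1.42, a difference of 0.02 with a 95% interval of -1.41 to 1.45, so a 2-fold difference in either direction lay inside the interval. Without BMP6, STAR was 8.46 ± 0.22 in the control and 9.95 ± 1.02 with LH, where replicate 1 stood at 11.47. That LH difference was 1.49 (adjusted p = 0.914; 0.985 without LH replicate 1), and the difference between the responses was -1.47 (-3.50 to 0.56).

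CYP11A1, the enzyme that cuts the cholesterol side chain, was measured more tightly. Its signals were 9.36, 9.08, 8.93 and 8.81 with BMP6 and 9.15, 9.12, 9.03 and 9.27 with LH+BMP6. They overlapped, and the difference of 0.10 had an interval of -0.24 to 0.44, which leaves out a 1.5-fold rise. The difference made by LH alone was 0.50 (adjusted p = 0.740), and 0.286 without LH replicate 1. HSD3B1, which converts pregnenolone to progesterone, read 9.94, 8.55, 9.34 and 9.31 with BMP6 and 9.53, 8.74, 9.13 and 9.26 with LH+BMP6, a difference of -0.12 (-0.65 to 0.41).

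CYP17A1 stayed dim whether or not LH was added. The arrays read 4.34, 4.84, 4.89 and 4.26 with BMP6 and 4.46, 4.61, 4.78 and 4.32 with LH+BMP6. The LH+BMP6 values all lay inside the span of the BMP6 values. The difference was -0.04, with an interval of -1.14 to 1.06 from the fit over 16 arrays, whose shared spread includes the variable arrays without BMP6, and of -0.39 to 0.31 from the 8 arrays alone. With LH alone CYP17A1 averaged 8.69 ± 1.47 against 7.38 ± 0.85 in the control, a difference of 1.31 (adjusted p = 0.898) that was 0.587 without LH replicate 1. The interaction was -1.35 (-2.90 to 0.21).

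Of 31 listed genes of the steroidogenic pathway, 24 were measured. None was called, and none reached an unadjusted p under 0.05, against 1.40% of all genes. Their median LH difference with BMP6 was 0.0403, with 18 above 0 and 6 below; over all 9155 genes it was 0.00774, with 4898 above and 4256 below. Without BMP6 the same 24 genes had a median of 0.153, and 9 were higher at an unadjusted p under 0.05, against 3.27% of all genes. That median was 0.0875 without LH replicate 1. The pathway genes with the most extreme statistic under BMP6 were CYB5R3, a cytochrome b5 reductase (0.15), and NR0B1, a nuclear receptor that represses steroidogenic genes (0.22, and -0.09 on its other probe set). NR5A1, the nuclear receptor that drives many steroidogenic promoters, read 7.93, 7.98, 7.99 and 7.90 with BMP6 and 7.79, 8.11, 8.08 and 8.14 with LH+BMP6, a difference of 0.08 (-0.13 to 0.29).

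Genes of cholesterol synthesis and uptake supply the substrate, and 26 of 40 listed were measured. None was called with BMP6, or reached an unadjusted p under 0.05 in the 16-array fit without a replicate block. Their median difference was 0.0691, with 20 above 0 and 6 below. It was -0.0216 without LH+BMP6 replicate 1 and 0.13 without LH+BMP6 replicate 3. Without BMP6 the median was 0.49, with 24 above 0, and 16 of the 26 had an unadjusted p under 0.05, against 5.42% of all genes, with none of them called. Leaving out LH replicate 1 brought that median to 0.286, and leaving out the 3 arrays of low hybridisation signal brought it to 0.263. In the interaction 23 of the 26 were below 0, with a median of -0.4, and 4 had an unadjusted p under 0.05, against 2.88% of all genes.

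TM7SF2, a sterol reductase of the late pathway, read 5.73, 6.07, 5.84 and 5.77 with BMP6 and 5.97, 6.14, 5.88 and 5.82 with LH+BMP6. The groups overlapped, and the difference was 0.10 (-0.69 to 0.89, and -0.13 to 0.34 from the 8 arrays alone). With LH alone the TM7SF2 difference was 1.43 (adjusted p = 0.622), and 0.957 without LH replicate 1. DHCR7, which makes the last step to cholesterol, read 8.41, 7.87, 7.67 and 7.61 with BMP6 and 8.41, 8.03, 7.84 and 7.95 with LH+BMP6, a difference of 0.17 (-0.41 to 0.75). LSS, the lanosterol synthase, had the highest value of the list. Its arrays read 8.28, 7.54, 7.58 and 7.61 with BMP6 and 8.44, 7.86, 7.88 and 8.29 with LH+BMP6, a difference of 0.36 (-0.06 to 0.78; adjusted p = 1.00), and its other 2 probe sets gave -0.02 and 0.10. SCARB1, the receptor that takes up cholesterol from high-density lipoprotein, read 9.87, 10.06, 10.07 and 9.84 with BMP6 and 10.03, 10.25, 10.00 and 10.05 with LH+BMP6. Its difference was 0.12 (-0.20 to 0.44). With LH alone the SCARB1 difference was 0.73 (adjusted p = 0.377), and 0.516 without LH replicate 1.

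**Figure D3:**
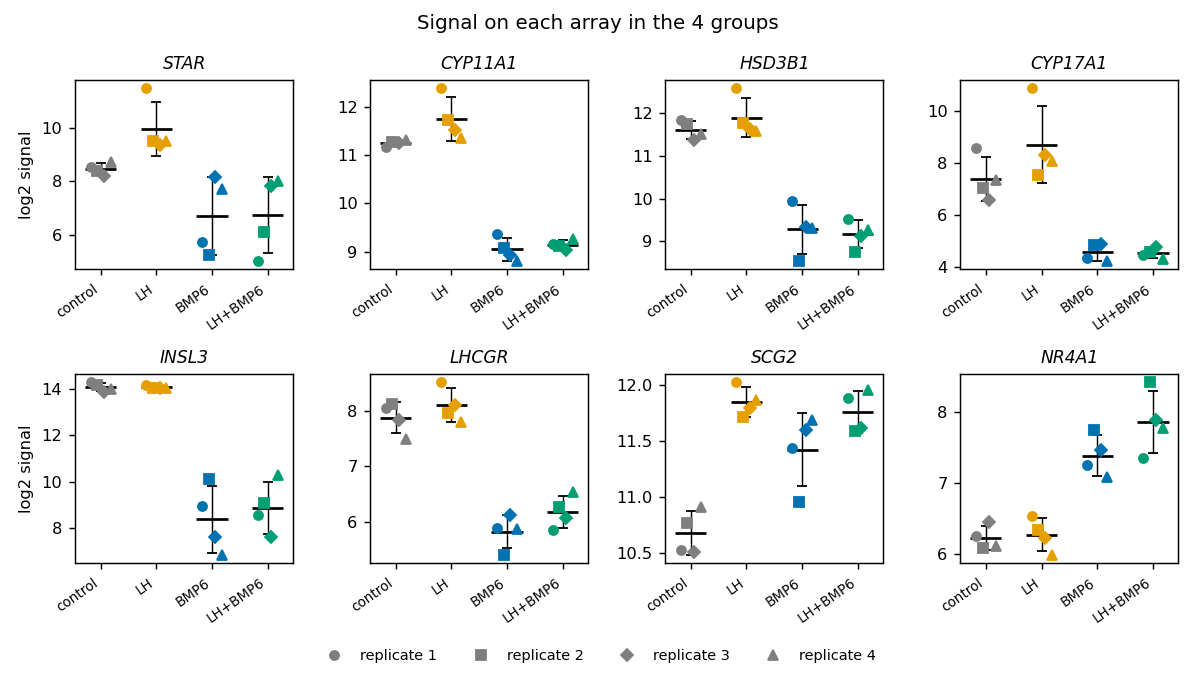
Log2 signal (y) on each array in the control, LH, BMP6 and LH+BMP6 groups for 8 genes; points are arrays, shaped by replicate number, the horizontal line is the mean and the error bar the SD of 4 arrays. For STAR, CYP11A1, HSD3B1, CYP17A1, INSL3 and LHCGR the BMP6 and LH+BMP6 points overlap, and for CYP11A1, HSD3B1, CYP17A1, INSL3 and LHCGR both groups lie below every control and LH array.

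Among the theca hormones and their receptors, INSL3 had the highest mean difference and a wide spread. It read 8.96, 10.12, 7.60 and 6.85 with BMP6 and 8.55, 9.09, 7.59 and 10.28 with LH+BMP6. The mean was higher with LH, at 8.88 ± 1.12 against 8.38 ± 1.45 (SD, n = 4), through replicate 4, which was the lowest array with BMP6 and the highest with LH+BMP6. The difference was 0.50 (-0.66 to 1.65; adjusted p = 1.00); without replicate 4 it was -0.48, and without BMP6 replicate 2 it was 1.07. INSL3 in the control was 14.08, and with LH alone 14.07. INHA, the inhibin alpha subunit, read 6.59, 6.74, 6.06 and 6.30 with BMP6 and 6.44, 6.54, 6.17 and 6.97 with LH+BMP6, a difference of 0.10 (-0.41 to 0.61). BMPR2, a BMP type II receptor, had a difference of -0.24 (-0.51 to 0.04), and its other 2 probe sets gave 0.0038 and 0.15. Of 23 measured genes of this list none reached an unadjusted p under 0.05, and the median was 0.0076.

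LHCGR, the LH receptor itself, was also among the higher values. The arrays read 5.89, 5.40, 6.12 and 5.87 with BMP6 and 5.85, 6.26, 6.06 and 6.54 with LH+BMP6. Replicates 2 and 4 of LH+BMP6 lay above all BMP6 arrays, and replicates 1 and 3 lay among them. The means were 5.82 ± 0.30 and 6.18 ± 0.29 (SD, n = 4), a 1.28-fold ratio, and the difference of 0.36 (-0.03 to 0.75) had an adjusted p of 1.00 in limma; without replicate 2 it was 0.191. Leaving out replicate 3 gave 0.499. The other LHCGR probe sets gave 0.20 and -0.01. In the control LHCGR was 7.88. The signalling machinery behind the receptor (G proteins, adenylate cyclases, protein kinase A subunits and phosphodiesterases) had 23 of 39 genes measured, a median difference of 0.00062, and no gene at an unadjusted p under 0.05. PRKACB, a catalytic subunit of protein kinase A, had a difference of 0.12 (-0.08 to 0.31).

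In the 16-array fit without a replicate block, the LH and cAMP response genes held the only members of the 20 lists with an unadjusted p under 0.05. These were NR4A1 and SCG2, 2 of 25 measured genes, against 1.40% of all genes, both higher with LH and neither called. The list's median was 0.0499, with 18 above 0. NR4A1, an orphan nuclear receptor and immediate-early gene of cAMP signalling, read 7.25, 7.75, 7.47 and 7.09 with BMP6 and 7.36, 8.43, 7.89 and 7.78 with LH+BMP6. Replicates 2, 3 and 4 of LH+BMP6 lay above every BMP6 array. The means were 7.39 ± 0.29 and 7.86 ± 0.44, a 1.39-fold ratio and a difference of 0.47 (0.08 to 0.86; limma's unadjusted p = 0.0220, adjusted p = 1.00), which was 0.282 without LH+BMP6 replicate 2. Leaving out LH+BMP6 replicate 1 instead gave 0.639. With LH alone the difference was 0.05, and the interaction was 0.42 (unadjusted p = 0.131).

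SCG2, secretogranin II, a secretory granule protein, had the smallest p of all genes with LH alone. It read 11.44, 10.96, 11.60 and 11.69 with BMP6 and 11.89, 11.59, 11.62 and 11.96 with LH+BMP6. Replicates 1 and 4 of LH+BMP6 lay above every BMP6 array. The means were 11.42 ± 0.33 and 11.76 ± 0.19, a difference of 0.34 (0.05 to 0.63; limma's unadjusted p = 0.0247, adjusted p = 1.00), which was 0.187 without BMP6 replicate 2. Leaving out all arrays of replicate 3 gave 0.449. Without BMP6, SCG2 rose from 10.68 ± 0.19 to 11.85 ± 0.13, by 1.17 (adjusted p = 0.00396). Without the 3 arrays of low hybridisation signal this rise was 0.95 with an adjusted p of 0.673, so the call was lost. The call was also lost without all arrays of replicate 1, 3 or 4 (adjusted p = 0.191, 0.216 and 0.0508). The BMP6 mean lay between the control and LH means. The interaction for SCG2 was -0.83 (-1.24 to -0.42; unadjusted p = 0.000545, adjusted p = 1.00).

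TF, the iron carrier transferrin, was the other named gene called with LH alone, by 1.13 (adjusted p = 0.0351). That adjusted p ran from 0.0225 to 0.326 when arrays were left out and was 1.00 without the 3 arrays of low hybridisation signal. With BMP6 it read 5.71, 6.02, 6.43 and 6.27, and with LH+BMP6 6.29, 6.39, 6.07 and 6.22. The LH+BMP6 arrays lay inside the BMP6 span, with a difference of 0.13 (-0.23 to 0.49). The third probe set called with LH alone carries no gene name here and had a difference of 1.62 there and 0.14 with BMP6.

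RGN, regucalcin, a calcium-binding protein, read 4.91, 5.16, 4.75 and 5.22 with BMP6 and 4.43, 5.08, 4.70 and 4.94 with LH+BMP6. The groups overlapped and the difference was -0.22 (-1.37 to 0.93, and -0.56 to 0.11 from the 8 arrays alone). With LH alone the RGN difference was 2.39 (adjusted p = 0.509), and 1.66 without LH replicate 1. LOC767968 read 3.79, 3.56, 3.53 and 3.83 with BMP6 and 3.69, 3.88, 3.58 and 4.19 with LH+BMP6. The difference was 0.16 (-0.75 to 1.06, and -0.13 to 0.44 from the 8 arrays alone). With LH alone the LOC767968 difference was 2.43 (adjusted p = 0.113), and 1.89 without LH replicate 1. STC1, stanniocalcin, a secreted glycoprotein, read 8.95, 8.77, 8.43 and 8.74 with BMP6 and 8.94, 8.57, 8.35 and 8.75 with LH+BMP6. Its difference was -0.07 (-0.69 to 0.54, and -0.38 to 0.23 from the 8 arrays alone). With LH alone the STC1 difference was -1.37 (adjusted p = 0.425), and -1.27 without LH replicate 1. The interactions were -2.61 for RGN, -2.27 for LOC767968 and 1.30 for STC1, each with an adjusted p of 1.00.

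**Figure D4:**
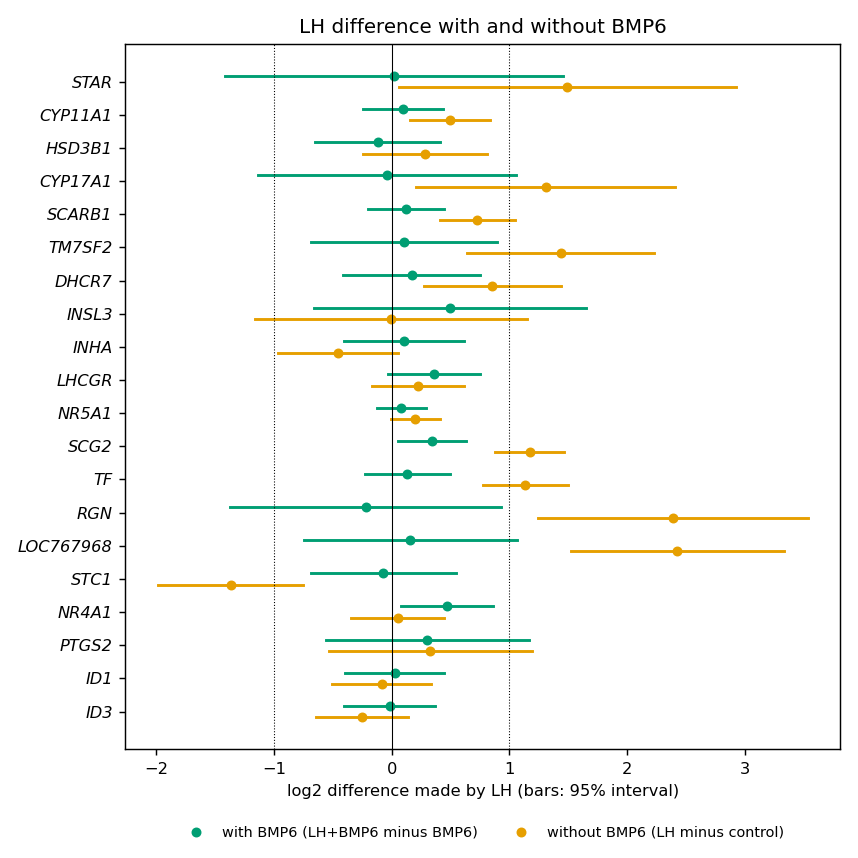
Log2 difference made by LH (x) for 20 genes, green with BMP6 (LH+BMP6 minus BMP6) and orange without BMP6 (LH minus control); bars are 95% intervals from limma, unadjusted for the number of tests, and dotted lines mark 2-fold. With BMP6 the intervals of NR4A1 and SCG2 lie above 0 and the other 18 include 0.

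Genes on the BMP6 side of the design were at similar levels with and without LH. ID1, a SMAD target that blocks basic helix-loop-helix factors, read 11.27, 10.57, 11.18 and 11.12 with BMP6 and 11.32, 10.62, 11.03 and 11.26 with LH+BMP6. Replicate 2 was the lowest in both groups, and the difference was 0.02 (-0.40 to 0.45). ID2 differed by 0.13 (-0.25 to 0.52), ID3 by -0.02 (-0.41 to 0.37) and TMEM100, a membrane protein induced by BMPs in endothelium, by -0.14 (-0.75 to 0.47). Only 7 of 20 listed SMAD targets were measured, with a median of 0.00268.

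The genes tied to luteinisation and ovulation also stayed uncalled. PTGS2, the inducible prostaglandin synthase, read 9.13, 10.24, 9.24 and 9.26 with BMP6 and 9.37, 10.71, 9.83 and 9.19 with LH+BMP6. Replicate 2 was the highest in both groups, and the difference was 0.30 (-0.56 to 1.16), or -0.0067 without LH+BMP6 replicate 2 and 0.562 without BMP6 replicate 2. VEGFA, the angiogenic growth factor, differed by 0.14 (-0.49 to 0.77). This was -0.149 without LH+BMP6 replicate 2 and 0.369 without BMP6 replicate 2. CREM, a cAMP-responsive transcription factor, differed by 0.05 (-0.35 to 0.45). Of 30 measured luteinisation genes none reached an unadjusted p under 0.05, and the median was 0.0671.

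Glycolysis and chemokine genes leaned upward without passing the test. Of 28 glycolysis and hypoxia genes 24 were above 0, with a median of 0.11. When arrays were left out, this median ran from -0.0057 (without LH+BMP6 replicate 2) to 0.197 (without BMP6 replicate 2). PGAM1, a phosphoglycerate mutase, had the most extreme statistic, with 10.60, 11.05, 10.77 and 10.50 with BMP6 and 10.74, 11.38, 10.89 and 11.10 with LH+BMP6, a difference of 0.30; ALDOA, an aldolase, followed with 0.23. Of 32 chemokine and inflammatory genes 26 were above 0, with a median of 0.131. That median was 0.0375 without LH+BMP6 replicate 2 and 0.205 without BMP6 replicate 2. IL33, an alarmin cytokine, read 3.59, 4.05, 4.06 and 4.01 with BMP6 and 3.86, 4.95, 3.96 and 4.49 with LH+BMP6, a difference of 0.39 at a very low signal; its other 2 probe sets gave -0.09 and 0.05. TNF differed by 0.15, and its groups did not overlap, as was so for 160 of all 9155 genes (1.75%). Of the 15 leukocyte markers 13 were above 0, with a median of 0.0967, which was -0.0319 without BMP6 replicate 1 and 0.172 without BMP6 replicate 3. Their mean per array ran from 7.28 to 7.82 with BMP6 and from 7.60 to 7.87 with LH+BMP6, and ITGB2, an integrin of leukocytes, differed by 0.21. The part of leukocyte RNA in the chemokine values was not tested.

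The remaining lists lay nearer to 0. The 33 cell cycle genes had a median of -0.03, with 23 below 0; AURKA, a mitotic kinase, differed by -0.22 and CCND2, a cyclin, by 0.22. The 34 collagen and matrix genes had a median of 0.0325, and POSTN, the matrix protein periostin, had -0.41 (-1.04 to 0.22). The 24 matrix proteases and inhibitors had a median of 0.0576, with MMP2, a gelatinase, at 0.22. The 15 insulin and IGF genes had a median of 0.0386, with IGF1R at -0.19 and INSR at 0.24, whose other 4 probe sets gave -0.07 to 0.15. The marker lists had medians of 0.0767 for theca cells, -0.0034 for granulosa cells, -0.0699 for endothelial cells, -0.0029 for pericytes and fibroblasts, -0.0156 for smooth muscle cells and -0.0278 for red blood cells. None of these lists had a gene with an unadjusted p under 0.05 in the 16-array fit without a block.

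**Figure D5:**
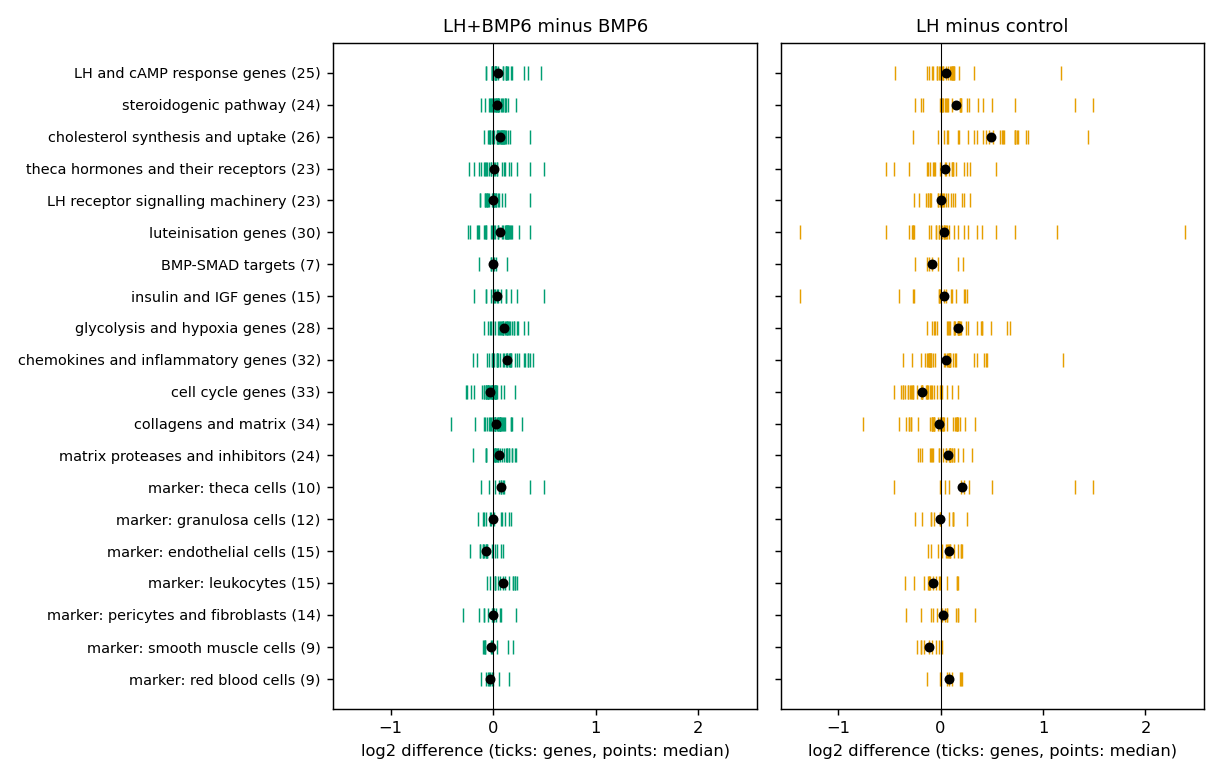
Log2 difference made by LH (x) for the measured genes of 20 lists, with BMP6 (left) and without it (right); each tick is a gene, the black point is the list's median and the number in brackets counts its measured genes. With BMP6 the list medians lie between -0.0699 and 0.131, and without BMP6 that of cholesterol synthesis and uptake lies at 0.49.

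Since no gene was called, the genes with the smallest unadjusted p whose difference had the same sign at all 4 replicate numbers are given as values. The 12 on the higher side differed by 0.181 to 0.328, with unadjusted p of 0.00661 to 0.0185, and the 12 on the lower side by 0.161 to 0.348 in size, with unadjusted p of 0.00563 to 0.0205. All had an adjusted p of 1.00. Of the higher ones, 8 had groups that did not overlap, and of the lower ones 6, against 1.75% of all 9155 genes. These genes were picked for a small p and for the same sign at all 4 replicate numbers, both of which favour groups without overlap.

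On the higher side, C7H19orf25 read 6.54, 6.38, 6.63 and 6.53 with BMP6 and 6.75, 6.66, 6.85 and 6.82 with LH+BMP6, every array above all BMP6 arrays. HDAC10, a histone deacetylase, read 6.12, 6.16, 6.27 and 6.06 with BMP6 and 6.48, 6.32, 6.33 and 6.64 with LH+BMP6, again without overlap; its other, dimmer probe set had a difference of -0.10. GPC4, a cell surface glypican that carries heparan sulfate, read 7.01, 7.17, 7.05 and 7.21 with BMP6 and 7.31, 7.30, 7.46 and 7.36 with LH+BMP6. The differences of these genes were 0.25, 0.29 and 0.25. The others were SFTPD, surfactant protein D (0.32), PRMT6, an arginine methyltransferase (0.33), FCAR, an immunoglobulin A receptor (0.30), SLC35A4, a solute carrier (0.27), CLDN15, a claudin (0.22), NBEAL1 (0.22), TMEM53 (0.21), SLC22A7, an organic anion transporter (0.19), and TXNDC11, a thioredoxin domain protein (0.18).

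On the lower side, LEF1, a transcription factor of Wnt signalling, read 5.11, 5.12, 5.16 and 5.16 with BMP6 and 4.63, 4.94, 5.09 and 4.75 with LH+BMP6, without overlap. HMGB1, an abundant chromatin protein, read 10.81, 10.87, 10.80 and 10.87 with BMP6 and 10.73, 10.70, 10.67 and 10.60 with LH+BMP6, also without overlap, for a difference of -0.16. The other HMGB1 probe set, nearly as bright, had a difference of 0.0018. CERS4, a ceramide synthase, read 5.82, 5.84, 6.10 and 5.95 with BMP6 and 5.53, 5.35, 5.62 and 5.81 with LH+BMP6, the largest of the lower differences at -0.35. FEZ2 had the smallest p, with -0.28 at a low signal, and LEF1 had -0.28. The rest were FBP1, the gluconeogenic fructose bisphosphatase (-0.29), TRMT61B, a mitochondrial tRNA methyltransferase (-0.28), TMEM35A (-0.27), COL4A3, a basement membrane collagen (-0.26, and 0.14 on its other probe set), DMTN, the actin-binding protein dematin (-0.24), ZNF329, a zinc finger protein (-0.23), GATC, of the mitochondrial tRNA amidotransferase (-0.23), and ATP1B4 (-0.22).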

How the data were processed

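RNA from 16 cultures was hybridised to Affymetrix bovine genome arrays. The authors deposited log2 signals, made by robust multi-array averaging (RMA) in Affymetrix Expression Console per the submitters' processing notes (software version: not given in the sources); RMA fits all arrays together and evens out their distributions, so a shift shared by most transcripts would be removed. The deposited log2 values were used unchanged. Of 24128 probe sets, 112 manufacturer's controls were left out of the tests. Platform annotation gave 1 symbol to 13292 probe sets, several to 86 and none to 10638, and 13263 of those with 1 symbol were matched to a RefSeq gene of ARS-UCD2.0 by Entrez number, with no symbol changed. Where a gene had several probe sets, the brightest on average stood for it.

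limma 3.58.1 in R 4.3.3 fitted the 4 group means on all 16 arrays, without a replicate block, with eBayes and an intensity trend, and gave 3 contrasts: LH+BMP6 minus BMP6, LH minus control, and their difference (the interaction). A probe set was called at a Benjamini-Hochberg adjusted p under 0.05 over 24016 probe sets. The fit was tested on simulated data. Quality measures were compared by exact permutation. Precision is limited by 4 arrays a group, and p-values measure the spread between these cultures.

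Named genes are the called genes of LH+BMP6 against BMP6 (up to 12 a direction), filled up with those of smallest p that have 1 sign at 4 of 4 replicate numbers; a set of 24 genes tied to LH and BMP6, of which 22 were named by the annotation; the 2 genes of most extreme statistic of each of 20 lists; and genes called in the other contrasts. The comparison, gene set and lists were chosen with earlier results of these data known. The alternatives were a replicate block (fixed or random), the variance prior, fewer arrays, a filter on dim probe sets, other normalization, and the mean over a gene's probe sets. A planned search for promoter motifs was not run, since no promoter sequences were used here.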

Additional observations from a re-analysis of the deposited data

Results flagged for a closer look

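In each of the 4 groups the highest and lowest of the 4 arrays were compared with the nearest other array for the 80 named genes, as the gap divided by the group's range. Of 320 groups so examined, 21 held an array whose ratio was above Dixon's 95% critical value, where chance gives about 1 in 20; 12 of the 21 were replicate 1 arrays, 4 replicate 2, 1 replicate 3 and 4 replicate 4.

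Among BMP6 arrays, replicate 1 was the lowest for FCAR (ratio 0.848) and IL33 (0.89) and the highest for LSS (0.909). BMP6 replicate 2 was the lowest for ID3 (0.834) and the highest for PTGS2 (0.883). BMP6 replicate 4 was the highest for NBEAL1 (0.841) and the lowest for AURKA (0.877). Among LH+BMP6 arrays, replicate 1 was the lowest for ITGB2 (0.909), replicate 2 the highest for HBA (0.888) and replicate 4 the highest for COL4A3 (0.891).

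Among the arrays with LH alone, replicate 1 was the highest for STAR (0.928) and GATC (0.863) and the lowest for HMGB1 (0.982), ITGB2 (0.853), S100A4 (0.864) and HBB (0.865), and replicate 3 was the lowest for TRMT61B (0.913). Among control arrays, replicate 1 was the highest for CLDN15 (0.844) and S100A4 (0.907), replicate 2 for TMEM35A (0.923) and replicate 4 for DMTN (0.859). STAR in LH replicate 1 read 11.47 against 9.34 to 9.49 on the other 3 arrays. This array is also among those of low hybridisation-control signal; the cause was not tested.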

How the results depend on the processing

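LH+BMP6 against BMP6 had 0 called probe sets under all 22 alternatives, with 200 (dim probe sets left out) to 1130 (the 8 arrays alone with a fixed replicate block) at an unadjusted p under 0.05 and 368 to 774 when arrays were left out. The interaction had 0 under all 28. For LH against control the 3 calls became 1 with only the arrays compared, 1 with those and a fixed replicate block, 0 without the 3 arrays of low hybridisation signal, and 0 to 6 when arrays were left out. Of 1820 values of named genes in LH+BMP6 against BMP6, none was called, 45 changed sign and 6 moved by more than the spread between replicates; of 360 list medians, 61 changed sign.

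The labels do not say that a number marks the same batch of ovaries. Deviations of same-numbered BMP6 and LH+BMP6 arrays correlated at 0.51, 0.69, 0.08 and 0.24, on average 0.38, against -0.124 for different numbers. Of 4 arrays, 2 matched their own number best, and the numbers were not taken as pairs. The main fit thus keeps any difference between replicate numbers in its spread, which widens its intervals where same-numbered arrays are alike. With the fixed replicate block over 16 arrays, LH+BMP6 against BMP6 had 0 calls and 631 probe sets at an unadjusted p under 0.05, LH against control 2 calls and the interaction 0; with the random replicate block these were 0, 3 and 0. On the 8 arrays alone, 469 genes (5.12%) had an unadjusted p under 0.05 with the block and 141 (1.54%) without it, and none was called. With that block the counts held 9 of 28 glycolysis and hypoxia genes and 7 of 32 chemokine and inflammatory genes. They also held 7 of 24 matrix proteases and inhibitors. In that order the counts were 0, 1 and 2 on the 8 arrays without the block. Over 16 arrays they were 3, 1 and 3 with the block, against 206 of all 9155 genes (2.25%). Without the block they were 0 of each, against 128 of all genes (1.40%). Other lists also had genes at an unadjusted p under 0.05 on the 8 arrays with the block. These were 5 of 23 theca hormones and receptors, 6 of 30 luteinisation genes and 4 of 25 LH and cAMP response genes. Leukocyte markers held 3 of 15, pericyte and fibroblast markers 3 of 14 and insulin and IGF genes 3 of 15. Among the lower counts were 0 of 24 for the steroidogenic pathway and 2 of 26 for cholesterol synthesis and uptake. POSTN, ALDOA, LSS, PGAM1 and LHCGR reached that p on the 8 arrays with the block and in neither fit without it. In limma on the 8 arrays with the block, unadjusted p was 0.000553 for NR4A1, 0.00154 for SCG2 and 0.00758 for PTGS2. It was 0.317 for CYP11A1, 0.361 for INSL3 and 0.667 for CYP17A1. The block narrowed the STAR interval from -1.67 to 1.71 to -0.41 to 0.45. The interaction was not run on fewer groups. The 95% interval reached past 2-fold for 39 of 9155 genes in the 16-array fit, 33 on the 8 arrays alone and 3 on those with the block; CYP17A1 was inside 2-fold on the 8 arrays alone.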

Other observations

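The following 4 probe sets had the most extreme values in LH+BMP6 against BMP6, and they were chosen after their values were seen. A probe set with no gene name here had the smallest unadjusted p of all probe sets, 0.000237 (adjusted p = 1.00 in limma), with a mean of 4.04 ± 0.09 (SD) with BMP6 and 4.47 ± 0.14 with LH+BMP6, and -0.09 with LH alone. A second unnamed probe set differed by 0.59 with BMP6 and by 0.94 with LH alone. KLRA1, a natural killer cell lectin receptor, differed by 0.59 at a low signal of 3.36 with BMP6. KLF10, a zinc finger factor induced by transforming growth factor beta, differed by -0.61 on its dimmer probe set and by -0.17 on its brighter one.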
